A study of Mus musculus with 6 samples.

Results

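The genes described here number 10. They are the transcription factor genes Myb, Myc, Mycn, Sox4, Gfi1, Erg, Runx1, Bcl11a and Ikzf2, and Cd34, which encodes a surface glycoprotein of stem and progenitor cells and no transcription factor. All were picked by symbol from the 34199 genes counted, as regulators or markers of the immature blood cell state. They were chosen with earlier results of these data known. RNA-seq had been carried out on iGMPs, granulocyte-macrophage progenitors of C57Bl/6 mice that self-renew under an ER-HOXA9 fusion protein and carry a GFP reporter at the lysozyme gene (Lys-GFP-ER-HoxA9 cells). All 3 groups share the fusion, the reporter and culture in medium with stem cell factor, and all libraries were made at 24 h. Control cells received IPTG and kept estradiol (E2, 150 ng/ml), so that HOXA9 stayed active. In CAF-1 OFF, 500 µM IPTG induced an shRNA against Chaf1b, which codes for part of the histone chaperone CAF-1, and estradiol was kept. In HOXA9 OFF, estradiol was washed out, which inactivates the fusion. The labels name neither the clones of each group nor whether HOXA9 OFF cells received IPTG. The comparisons address whether these genes leave their progenitor level when CAF-1 is suppressed, and where they stand when HOXA9 is withdrawn and the cells enter normal myeloid differentiation.

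Blood progenitors hold their state through a set of DNA-binding proteins that act together on shared enhancers. MYB is required for definitive hematopoiesis and sustains myeloid progenitors. MYC and MYCN bind DNA as partners of MAX and drive growth, ribosome production and division, and their levels normally drop as myeloid cells mature. SOX4 is an HMG-box factor, ERG belongs to the ETS family, and RUNX1 is the DNA-binding subunit of core binding factor. GFI1 and BCL11A are zinc finger repressors, the former needed for neutrophil formation and the latter best known in B cells and in hemoglobin switching. Ikzf2 encodes Helios of the Ikaros family. HOXA9 itself acts with MEIS and PBX proteins on many progenitor genes.

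Each group had 2 libraries, with 16773560 to 25170898 gene counts per library. Levels are given as CPM (library-scaled counts, on TMM-corrected totals), where 3 counts correspond to 0.118 to 0.182 CPM. The hairpin target Chaf1b averaged 97.5 CPM in control and 14.9 in CAF-1 OFF (FDR 0.0198 by edgeR), and 63.0 in HOXA9 OFF. All 8 GMP identity genes examined (Kit, Cd34, Mpo, Elane, Prtn3, Ctsg, Fcgr3, Csf2rb) were detected, and their summed level was 11192 to 14335 CPM in control, 15247 to 16868 in CAF-1 OFF and 12046 to 15034 in HOXA9 OFF. Mpo alone stood at 5273 CPM in control and 7610 in HOXA9 OFF, so the sum says little of the rarer genes. In HOXA9 OFF against control, Cd34, Kit and Ctsg were lower and Csf2rb and Fcgr3 higher (1.5-fold, FDR under 0.05 by edgeR). These made up 62.5% of the list, beside 22% of all genes tested. Whether the libraries of a group at 24 h came from separate cultures or sub-clones was not stated, so the tests measure only the spread between these samples.

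Promoter sequence is shown for Sox4, Cd34 and Runx1, the 3 genes with ample reads that differed in HOXA9 OFF and hold, within 160 bases upstream of their start, the core letters that GFI1 recognises, AATCA or, read on the other strand, TGATT. Of the 10 genes, 8 had a RefSeq promoter (GRCm38.p6), which together gave 12 windows of 250 bases before to 50 bases after a start. AATCA occurred in 5 of these windows (41.7%), belonging to Mycn, Sox4, Runx1 and Cd34, against 37.0% of 32851 mouse promoter windows, so the letters were about as frequent as in promoters at large. In Sox4 and in both Runx1 windows the letters overlap a CCAAT box on the other strand, and in the first Runx1 window they also overlap an E-box (CACGTG). The stretches run 5′ to 3′ along the gene's own strand and end at the base before the start, with those core letters in capitals.
Sox4, chr13:28953700-28953859, minus strand: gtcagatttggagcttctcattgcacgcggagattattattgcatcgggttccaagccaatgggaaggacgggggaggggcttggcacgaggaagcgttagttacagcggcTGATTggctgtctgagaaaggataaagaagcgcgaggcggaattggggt
Cd34, chr1:194938661-194938820, plus strand: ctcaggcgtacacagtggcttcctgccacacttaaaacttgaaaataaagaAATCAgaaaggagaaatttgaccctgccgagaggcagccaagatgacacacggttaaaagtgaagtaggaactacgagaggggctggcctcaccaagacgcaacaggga
Runx1, first window, chr16:92826075-92826234, minus strand: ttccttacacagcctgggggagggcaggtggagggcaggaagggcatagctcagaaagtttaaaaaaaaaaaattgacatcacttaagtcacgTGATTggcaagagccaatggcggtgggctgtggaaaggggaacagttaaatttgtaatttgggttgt
Runx1, second window, chr16:92697330-92697489, minus strand: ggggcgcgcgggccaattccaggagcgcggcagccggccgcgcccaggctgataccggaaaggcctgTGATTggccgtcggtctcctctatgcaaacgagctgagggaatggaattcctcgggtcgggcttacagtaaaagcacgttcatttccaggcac

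Other letters were searched on both strands in the same windows. The E-box CACGTG bound by MYC-MAX was in 1 window (8.33%), that of Runx1, against 7.15% of all promoter windows. The HOXA9-PBX letters TGATTTA, which contain TGATT, were in 0 of 12 windows against 2.97%, and the MEIS letters TGACAG in 16.7% against 19.2%. RUNX letters (TGTGGT) were in 8.33% against 16.8%, whereas MYB letters (AACNG, 83.3% against 80.3%) and the ETS core (GGAA, 100% against 96.0%) are in most promoters. These are counts of letters and do not show binding.

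In control iGMPs the 10 genes covered almost the whole range of expression. On a per-length scale (mean CPM per kb of exon), Cd34 stood highest at 687.1, followed by Myb at 238.7, Myc at 208.3 and Gfi1 at 122.8. These 4 lay at the 96th percentile or above among the 12390 tested genes with a known length. Erg (20.6) and Sox4 (18.8) came next, and their libraries overlapped, so the order of this pair is not set. Runx1 (5.19), Ikzf2 (1.82) and Mycn (0.302) were lower, and Bcl11a had no count in any control or CAF-1 OFF library and a single count in 1 HOXA9 OFF library. A count of 0 allows up to 0.118 to 0.182 CPM depending on the library, so Bcl11a was not detectable at this depth, did not pass the filter on low counts and entered no test. The order of the means was the same in CAF-1 OFF, where Runx1 (5.50) and Ikzf2 (5.10) overlapped. In HOXA9 OFF, Sox4 dropped from the sixth to the eighth place at 1.88, behind Runx1 at 14.5 and Ikzf2 at 6.12.

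**Figure D1:**
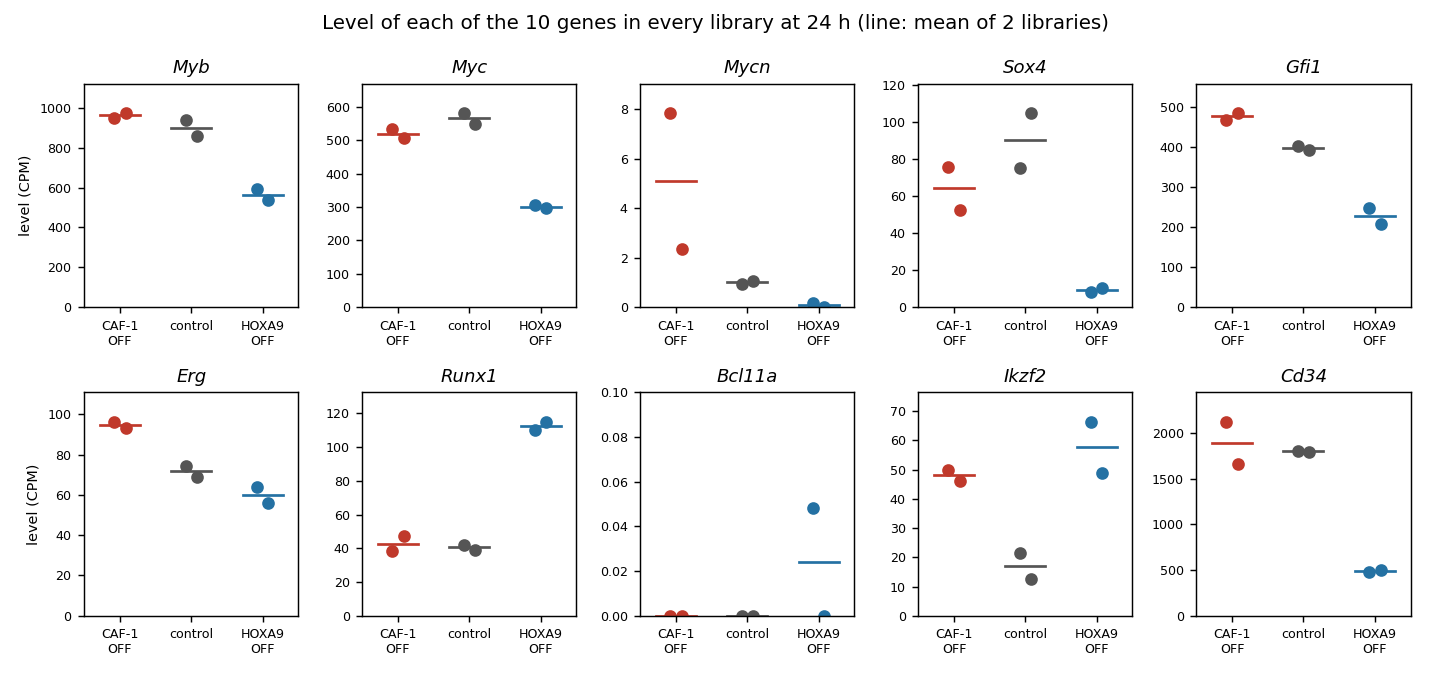
Level of each of the 10 genes in CPM (linear axis from 0, scaled per gene) in every library of CAF-1 OFF, control and HOXA9 OFF, with points for libraries and a line for the mean of 2 libraries. Myb, Myc, Mycn, Sox4, Gfi1, Erg and Cd34 lie lowest in HOXA9 OFF, Runx1 lies highest there, and Ikzf2 lies above control in both other groups.

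Most of these genes changed in HOXA9 OFF. Of the 9 tested, 8 were called in HOXA9 OFF against control (at least 1.5-fold, edgeR quasi-likelihood FDR under 0.05), 6 lower and 2 higher. Over all 12460 genes tested, 22% were called, 8.97% lower and 13% higher. The libraries of both groups did not overlap for any of the 9 genes, against 71% of all genes. Myb, Myc, Mycn, Sox4, Gfi1 and Cd34 were lower, Runx1 and Ikzf2 were higher, and Erg was not called. In bulk RNA, fewer cells of a type and less RNA per cell cannot be told apart.

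Myb (chromosome 10, 20844736 to 20880790, minus strand; this and the following positions are in NCBIM37, the assembly named mm9) stood at 943 and 860 CPM in control, 952 and 977 in CAF-1 OFF and 592 and 537 in HOXA9 OFF. Both HOXA9 OFF libraries lay below the other 4, which were close to each other. The drop was 1.60-fold (log2 fold change -0.68 ± 0.10 SE, FDR 0.00436 by edgeR). Even so, Myb remained one of the most abundant transcripts, at the 97.1st percentile of level per length in HOXA9 OFF.

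Myc (chromosome 15, 61816946 to 61821929, plus strand) was at 582 and 550 CPM in control, 532 and 506 in CAF-1 OFF and 306 and 296 in HOXA9 OFF. The 3 groups formed separate steps, with a wide gap only above HOXA9 OFF. Myc fell 1.88-fold with HOXA9 withdrawal (log2 fold change -0.91 ± 0.09, FDR 0.00139 by edgeR).

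Mycn (chromosome 12, 12942902 to 12948720, minus strand) was rare throughout, with 24 and 18 counts in control, 151 and 46 in CAF-1 OFF and 3 and 0 in HOXA9 OFF. As CPM these were 0.943 and 1.04 in control, 7.85 and 2.33 in CAF-1 OFF and 0.145 and 0 in HOXA9 OFF. The HOXA9 OFF libraries were thus at the floor, and against a floor of 3 counts per library Mycn was at least 6.09-fold lower than in control (FDR 0.0433 by edgeR). The call did not survive leaving out either control library (FDR 0.0964 and 0.116 by edgeR) or either HOXA9 OFF library (FDR 0.0685 and 0.144 by edgeR).

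Sox4 (chromosome 13, 29040788 to 29045582, minus strand), whose promoter is printed above, showed the largest fall among the members with reads in every library. It was at 75.3 and 105 CPM in control, 75.8 and 52.7 in CAF-1 OFF and 8.01 and 10.1 in HOXA9 OFF. CAF-1 OFF and control overlapped, while HOXA9 OFF lay far below both. The fall against control was 10-fold (log2 fold change -3.32 ± 0.26, FDR 0.000579 by edgeR).

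Gfi1 (chromosome 5, 108145674 to 108155056, minus strand) was at 404 and 394 CPM in control, 469 and 486 in CAF-1 OFF and 248 and 209 in HOXA9 OFF. The groups were again separate, here with CAF-1 OFF on top. With HOXA9 withdrawal Gfi1 fell 1.74-fold (log2 fold change -0.80 ± 0.11, FDR 0.00353 by edgeR).

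The ETS gene Erg (chromosome 16, 95580776 to 95808200, minus strand) followed the same order at a smaller scale, with 74.1 and 69.1 CPM in control, 96.4 and 93.4 in CAF-1 OFF and 64.1 and 56.1 in HOXA9 OFF. HOXA9 OFF lay just under control, and the difference was not called (log2 fold change -0.25 ± 0.11, 95% confidence interval -0.52 to 0.01, FDR 0.135 by edgeR).

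Runx1 (chromosome 16, 92601712 to 92826311, minus strand) moved the other way. It was at 42.0 and 39.1 CPM in control, 38.2 and 47.5 in CAF-1 OFF and 110 and 115 in HOXA9 OFF. Both HOXA9 OFF libraries exceeded all others, whereas CAF-1 OFF spanned control. The rise was 2.78-fold (log2 fold change 1.48 ± 0.13, FDR 0.000946 by edgeR), and it brought Runx1 from the 39.8th to the 62.5th percentile of level per length.

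Ikzf2 (chromosome 1, 69577788 to 69732534, minus strand) was the one member placed above control in both other groups. Its levels were 21.6 and 12.7 CPM in control, 49.8 and 46.2 in CAF-1 OFF and 66.4 and 48.9 in HOXA9 OFF. The control libraries differed from each other more than for most members, yet both lay under all 4 others. In HOXA9 OFF, Ikzf2 rose 3.34-fold (log2 fold change 1.74 ± 0.27, FDR 0.00461 by edgeR).

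Cd34 (chromosome 1, 196765015 to 196787486, plus strand), used to sort stem and progenitor cells, was at 1805 and 1797 CPM in control, 2128 and 1660 in CAF-1 OFF and 484 and 507 in HOXA9 OFF. It stayed the most abundant member per length in every group, although its lead over Myb shrank in HOXA9 OFF (188.9 against 149.4 CPM per kb). The fall was 3.64-fold (FDR 0.000482 by edgeR).

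Of the 10 loci, 6 carry an annotated antisense transcript, and the strand setting of the counting was not stated. Gm17419 shares 2616 exon bases with Sox4 and had 0 counts in all libraries, and Gm16801 (106 bases shared with Runx1) had at most 2 counts. Both transcripts opposite Bcl11a had 0 counts. Gm16786 (491 bases, Myb) had 11 to 52 counts and A430072P03Rik (101 bases, Gfi1) had 148 to 346. Gm16897 shares 148 exon bases with Cd34 and was itself lower in HOXA9 OFF, with 204 and 116 counts in control and 37 and 18 in HOXA9 OFF (log2 fold change -2.34, FDR 0.00432 by edgeR). The lowest counts of the members themselves were 8851 for Myb, 3449 for Gfi1 and 8356 for Cd34. Reads in the shared bases may be left out or assigned to either gene.

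Suppression of CAF-1 gave a different picture at the same time point. No member was called in CAF-1 OFF against control by the edgeR quasi-likelihood test (0 of 9), where 4 of 12460 genes (0.0321%) were called in all, 0.0241% higher and 0.00803% lower. An unadjusted p under 0.05 was reached by 3 of 9 members (Mycn, Erg, Ikzf2), and by 1330 of 12460 genes in all (10.7%). The libraries did not overlap for 6 of 9 members, 5 above control and 1 below, against 40.1% of all genes. Both HOXA9 OFF and CAF-1 OFF were compared with the same control libraries.

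Ikzf2 had the largest difference relative to its error. Its mean was 48.0 ± 2.58 CPM in CAF-1 OFF against 17.1 ± 6.36 in control (SD, n = 2), a fold of 2.78 (log2 fold change 1.47 ± 0.26, 95% confidence interval 0.85 to 2.10) with FDR 0.153 by edgeR. It ranked 71st of 12460 genes by p. The DESeq2 Wald test (FDR 4.98e-05) and the edgeR exact test (FDR 6.6e-05) both called Ikzf2, so its status depends on the test.

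For Mycn the mean was 5.09 ± 3.90 CPM in CAF-1 OFF against 0.994 ± 0.0723 CPM in control (log2 fold change 2.35 ± 0.70, FDR 0.325 by edgeR). This gap rested largely on the first CAF-1 OFF library, and without that library the log2 fold change was 1.22. Erg averaged 94.9 ± 2.16 CPM in CAF-1 OFF against 71.6 ± 3.56 in control (log2 fold change 0.41 ± 0.11, 95% confidence interval 0.14 to 0.67, FDR 0.3 by edgeR), a difference below the 1.5-fold minimum.

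The other members stayed within narrow bounds. Confidence intervals of the log2 fold change ran from -0.14 to 0.34 for Myb, -0.35 to 0.10 for Myc, 0 to 0.53 for Gfi1, -0.23 to 0.40 for Runx1 and -0.23 to 0.38 for Cd34. All 5 lie inside the 1.5-fold limits in both directions. Sox4 was less well determined, with an interval from -1.03 to 0.06 that passes the 1.5-fold limit on the lower side. For Cd34, the fitted difference of 0.07 became -0.12 without the first CAF-1 OFF library.

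**Figure D2:**
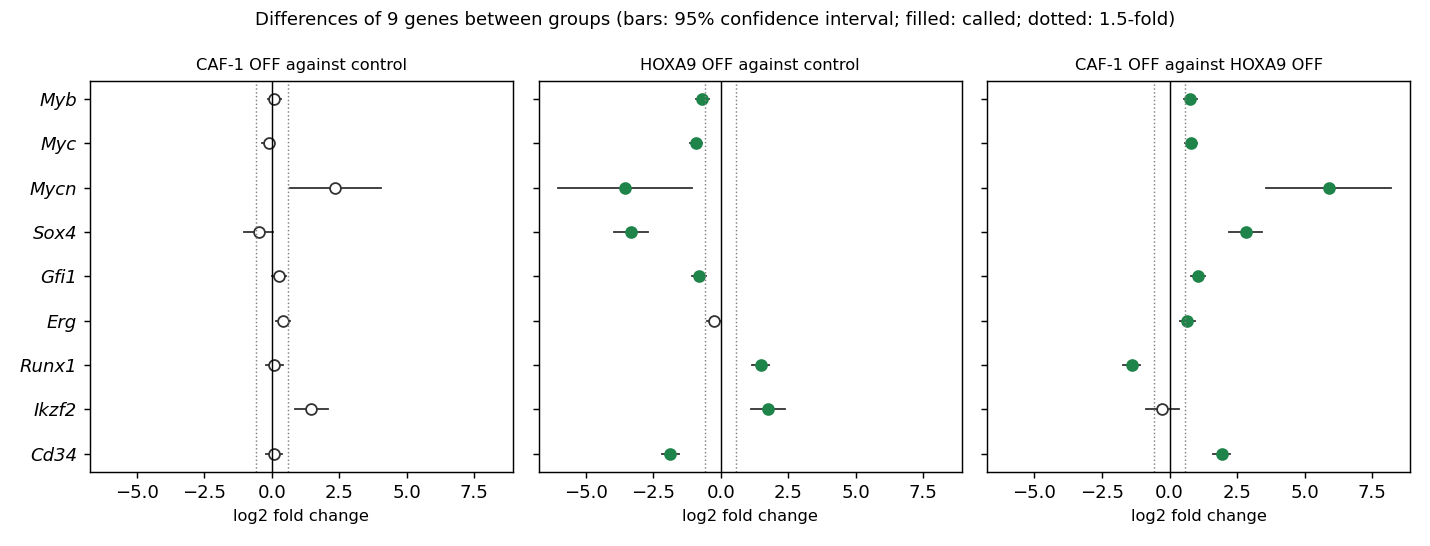
Log2 fold change of the 9 tested genes (points) with 95% confidence interval (bars) in each of the 3 comparisons, where filled points were called and dotted lines mark 1.5-fold. In CAF-1 OFF against control no point is filled, and in both comparisons with HOXA9 OFF 8 of 9 points are filled.

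CAF-1 OFF and HOXA9 OFF were also compared directly. Of the 9 members, 8 were called between CAF-1 OFF and HOXA9 OFF, 7 higher in CAF-1 OFF and 1 lower, where 22.1% of all genes were called (9.56% higher, 12.6% lower). Libraries did not overlap for 8 of 9 members, against 66.7% of all genes. Sox4 was 7.13-fold higher in CAF-1 OFF (log2 fold change 2.83 ± 0.26, FDR 0.000982 by edgeR) and Cd34 3.82-fold higher (FDR 0.000467 by edgeR). Gfi1 (2.09-fold), Myc (1.73-fold) and Myb (1.71-fold) were also higher in CAF-1 OFF. Mycn was at least 31.2-fold lower in HOXA9 OFF, against the floor of 3 counts per library, and at least 14.3-fold lower without the first and 48-fold without the second CAF-1 OFF library. Erg, not called in either group against control, was called here at 1.58-fold (log2 fold change 0.66 ± 0.11, FDR 0.00697 by edgeR), and lost the call without the second HOXA9 OFF library (FDR 0.0566 by edgeR). Runx1 was 2.63-fold lower in CAF-1 OFF (FDR 0.00111 by edgeR). Ikzf2 was the one tested member not called between these groups (log2 fold change -0.27 ± 0.26, 95% confidence interval -0.87 to 0.34, FDR 0.473 by edgeR), and its libraries overlapped.

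Genes that surround these regulators were followed in 8 lists of family members, partners, fellow stem cell factors and known targets, 101 genes in all, of which 90 were tested. The lists were chosen with earlier results of these data known. Their shares of calls beside those of all genes are therefore a description and no independent result. In HOXA9 OFF against control, 19 were called higher and 25 lower (48.9%), beside 22% of all genes (13% higher, 8.97% lower). In CAF-1 OFF against control, 0 of 90 were called by the edgeR quasi-likelihood test. The DESeq2 Wald test called 4 of them (4.44%, against 1.54% of all genes) and the edgeR exact test 6 (6.67% against 1.95%). An unadjusted quasi-likelihood p under 0.05 was seen for 21 of the 90, against 1330 of 12460 genes in all (10.7%). In CAF-1 OFF against HOXA9 OFF, 23 were called higher and 16 lower (43.3%), beside 22.1% of all genes. The median log2 fold change over all genes was 0 in each comparison.

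Known MYC-induced genes had a median log2 fold change of -0.68 in HOXA9 OFF. Of 14, 10 (71.4%) were called lower and 0 higher, beside 8.97% and 13% of all genes. They included Odc1, the rate-limiting enzyme of polyamine synthesis (275.9 ± 35.3 CPM in control, 90.7 ± 3.12 CPM in HOXA9 OFF, FDR 0.000584 by edgeR), Npm1 and Nop56 of the nucleolus, Polr1b of RNA polymerase I, and Cdk4. In CAF-1 OFF against control their median was -0.13. Within the MYC-MAX network, 3 of 9 tested members rose in HOXA9 OFF and 0 fell, and this share (33.3%) is not far from the 22% of all genes called. These were the MAX partners Mxd1 (log2 fold change 0.63 ± 0.11, FDR 0.00837 by edgeR), Mxd4 (0.84, FDR 0.0228 by edgeR) and the MAX-like Mlx (0.95, FDR 0.00214 by edgeR). MXD proteins compete with MYC for MAX. Mxd1 was not called with library size alone as the scaling. Max itself had a log2 fold change of -0.02 (FDR 0.903 by edgeR).

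Of 9 genes known to be repressed by GFI1, 5 were called higher in HOXA9 OFF and 2 lower, beside 13% and 8.97% of all genes. The median log2 fold change of the list was 2.49. Csf1r, the receptor of macrophage growth factor, rose from 4.14 ± 0.136 to 253.7 ± 54.7 CPM (log2 fold change 5.94, FDR 0.000103 by edgeR). The gene of its ligand, Csf1 (2.80, with 8.76 and 9.52 CPM in control but 32.1 and 95.3 CPM in the HOXA9 OFF libraries), Id2 (3.31) and the monocyte factor gene Irf8 (2.49) rose as well, as did the GFI1 paralog Gfi1b (3.43, FDR 0.00297 by edgeR). Gfi1b had only 14 and 6 counts in control against 131 and 61 in HOXA9 OFF. It thus passed the filter on low counts through the groups where it was high. Egr1 (-1.11) and the cell cycle inhibitor gene Cdkn1a (-0.84, FDR 0.0472 by edgeR) were the ones that fell. Both falls depended on the fit, as Cdkn1a was not called with only the 4 libraries compared or with the replicate block, and neither gene was called without the second control library or without either HOXA9 OFF library. Egr1 also lost its call without the first control library. Ets1 (2.17) was called by the DESeq2 Wald test, the edgeR exact test, without the filter, with only the 4 libraries compared and without either CAF-1 OFF library. Gfi1b and Irf8 stand in 2 of the 8 lists, and Csf1r is also a macrophage marker. In CAF-1 OFF, Gfi1b was at 3.01 ± 0.744 CPM against 0.449 ± 0.143 CPM in control and was not called by the quasi-likelihood test (log2 fold change 2.69, FDR 0.153 by edgeR), although the DESeq2 Wald test and the edgeR exact test called it. MYB-induced genes did not move one way, as Ms4a3 rose (1.31), Mat2a (-0.79) and Ctsg (-0.68) fell, and the other 5 of 8, Mpo and Elane among them, were not called. The share called was 37.5%, beside 22% of all genes.

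Paralogs of the members split in HOXA9 OFF, with 3 of 10 tested called higher and 2 lower, beside 13% and 8.97% of all genes. Among the higher was Gfi1b, scarce in control as described above. Fli1, the closest relative of Erg, rose (log2 fold change 0.72, FDR 0.0111 by edgeR), and so did Ikzf3 (2.92, FDR 0.00545 by edgeR). Runx2 fell from 92.7 ± 9.95 to 43.8 ± 3.41 CPM (FDR 0.00175 by edgeR), opposite to Runx1. Sox12, which belongs to the same SOX subgroup as Sox4, fell with it (-2.05, FDR 0.00164 by edgeR). Among partners and corepressors, Cbfb, the subunit that RUNX1 needs, was not called (0.05, FDR 0.751 by edgeR). Of the 12, 3 were called (25%), a share close to that of all genes. Cbfa2t3 and Ep300 rose (both 0.83, Ep300 not called with library size alone or with the replicate block) and the REST corepressor gene Rcor2 fell (-2.37, FDR 0.00207 by edgeR).

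Other stem and progenitor transcription factors were called in 9 of 20 cases in HOXA9 OFF, 4 higher and 5 lower (45%, beside 22% of all genes). Hlf, a factor of hematopoietic stem cells, fell from 254.4 ± 13.7 to 21.5 ± 2.50 CPM (log2 fold change -3.57, FDR 0.000102 by edgeR), and the HOXA9 cofactor gene Meis1 from 49.6 ± 9.54 to 12.3 ± 1.78 CPM (FDR 0.000946 by edgeR). Tal1 and Bmi1 fell too, as did Trib2, which encodes a pseudokinase and no transcription factor. Sfpi1, the gene of the myeloid master factor PU.1, rose from 171.1 ± 23.0 to 499.8 ± 85.0 CPM (FDR 0.00162 by edgeR), along with Mef2c, Irf8 and Zeb2. In CAF-1 OFF, Hlf was at 395.5 ± 52.2 CPM (log2 fold change 0.64, FDR 0.199 by edgeR) and Meis1 at 30.4 ± 0.988 CPM (log2 fold change -0.70, FDR 0.26 by edgeR), neither called by the quasi-likelihood test. The DESeq2 Wald test called Hlf in CAF-1 OFF, and the edgeR exact test called both. Of the progenitor surface proteins beside Cd34, Flt3, Kit and Cd27 fell in HOXA9 OFF and the cytokine receptor genes Csf2rb and Csf3r rose with Spn. Flt3 dropped from 283.4 ± 65.1 to 4.24 ± 1.10 CPM (FDR 0.000102 by edgeR) and Kit, the stem cell factor receptor, from 626 ± 118 to 281 ± 26.4 CPM (FDR 0.00366 by edgeR). Cd27 was near the floor in HOXA9 OFF.

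**Figure D3:**
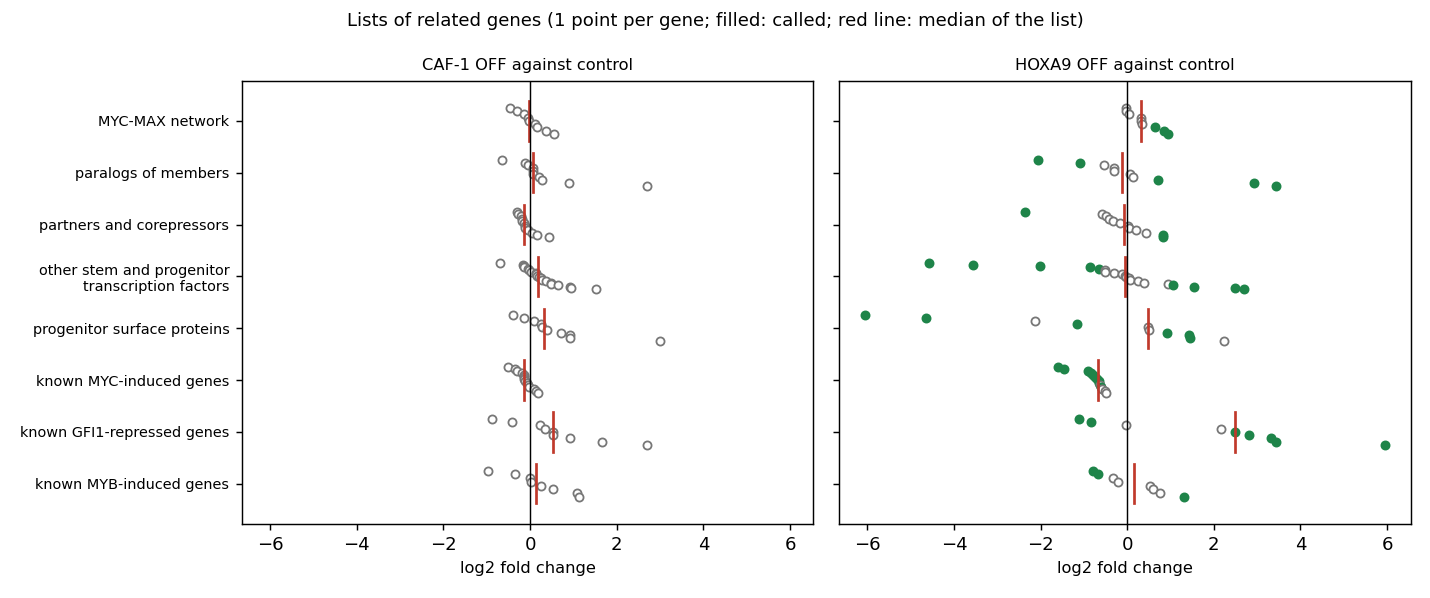
Log2 fold change of each tested gene (1 point per gene, filled if called) in the 8 lists, with the median of each list as a red line, in CAF-1 OFF against control and HOXA9 OFF against control. Known MYC-induced genes lie left of 0 in HOXA9 OFF with a median of -0.68, and no point is filled in CAF-1 OFF.

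Markers of maturing cells mostly rose in HOXA9 OFF, where most of the members fell. Of 10 maturing neutrophil genes 9 were called higher, beside 13% of all genes, their summed level being 874 to 1350 CPM against 116 to 134 CPM in control. Of these, Ltf (12 and 3 counts) and Camp (10 and 6) were scarce in control. In CAF-1 OFF the sum was 452 to 726 CPM and the median log2 fold change of the list 1.21. Mmp8 (481 ± 211 CPM, FDR 0.0757 by edgeR) made up most of that sum, and S100a8 stood at 17.4 and 16.6 CPM in CAF-1 OFF and 2.51 and 2.32 CPM in control (log2 fold change 2.80, FDR 0.0976 by edgeR). Macrophage genes summed to 476 to 534 CPM in HOXA9 OFF against 35.1 to 63.8 CPM in control. Of the 6 tested, 5 were called higher, again beside 13% of all genes. Lymphoid genes summed lower in HOXA9 OFF (68.5 to 72.7 CPM against 140.9 to 159.8), with Cd3e and Cd3g at 0. Nearly all of this came from Ebf1, at 96.2 CPM in control and 2.77 CPM in HOXA9 OFF, while the median log2 fold change of the 5 tested genes was 0.30. Mast cell and basophil genes (328 to 391 against 243 to 289 CPM in control and 305 to 691 CPM in CAF-1 OFF, Mcpt4 at 0) and megakaryocyte and erythroid genes (82.9 to 88.0 against 30.7 to 33.1 CPM in control and 40.8 to 84.9 CPM in CAF-1 OFF) also summed higher in HOXA9 OFF. The former sum rested on Cpa3 (143.2 ± 21.2 CPM in control, 240.3 ± 50.9 CPM in HOXA9 OFF, FDR 0.216 by edgeR), none of whose 4 tested companions was called either, and Mcpt8 had a log2 fold change of -0.52. The latter sum rested largely on Itga2b (16.6 ± 0.322 CPM in control, 58.0 ± 5.91 CPM in HOXA9 OFF, FDR 0.00847 by edgeR). Itga2b and Gata1 were called higher (33.3% of the tested genes, beside 22% of all genes). Pf4, Klf1, Epor and Gp9 were not called, Klf1 with a log2 fold change of -1.19. Hba-a1, Hbb-b1 and Car1 did not pass the filter. Stromal genes summed to 420 to 444 CPM in HOXA9 OFF against 236 to 242 CPM in control, nearly all of it from 1 gene, Pecam1, which blood cells also express, while the collagen gene Col1a2 was not called and the other 4 did not pass the filter. Their part in the differences of the 10 genes was not tested.

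For each tested member, the genes with the most similar pattern were sought by Pearson's r of log2 CPM over the 6 libraries among the 9614 or 9615 other genes with a mean of at least 5 CPM. Myb was most similar to Ssrp1 (r = 0.9995), Myc to Inhbb (0.9994) and Sox4 to Surf2 (0.9992). Runx1 was closest to Fnip1 (0.9989), Cd34 to Tut1 (0.9983), Gfi1 to Reps1 (0.9982) and Erg to Glul (0.9980). The best matches were weaker for Mycn (Slco3a1, 0.9975) and Ikzf2 (Pdia6, 0.9916). Each r is the highest of all those genes over 6 libraries in 3 groups and describes the shape of the pattern only, not its size, as Inhbb had a log2 fold change of -7.41 in HOXA9 OFF where Myc had -0.91.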

How the data were processed

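RNA-seq libraries of 3 groups with 2 libraries each were used. The authors aligned the reads to mm9 with STAR and counted them with HTSeq, and the deposited values are raw read counts per gene symbol. Annotation, strand setting and overlap mode were not stated, and reads aligning to several places are left out of such counts. The 5 tally lines were excluded (reads in no feature were 5.95 to 8.26 per 100 gene counts, ambiguous reads 3 to 3.28 and non-unique alignments 89.6 to 106.7).

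Counts were filtered with filterByExpr (12460 of 34199 genes), scaled by TMM (factors 0.954 to 1.03) and fitted in edgeR 4.0.16 (R 4.3.3, limma 3.58.1) with a quasi-likelihood model over all 6 libraries and 1 mean per group. Calls needed 1.5-fold and a Benjamini-Hochberg FDR under 0.05 over all genes. Errors are SE from the F statistic or SD of 2 libraries. Log2 CPM used a prior count of 2. Floors and counting limits (3 counts) cover counting error only. The fit was tested on simulated counts. Groups and replicate numbers came from the sample titles. Members and lists were chosen with earlier results of these data known, and symbols were matched in their older form where needed (Sfpi1 for Spi1). Genes named in the text are the members, called members of the lists with examples that were not called, and the most similar genes. Promoters are RefSeq, GRCm38.p6, and gene positions and exon lengths GENCODE for NCBIM37. Alternatives were DESeq2 1.42.0, the exact test, other scaling, filters and cutoffs, a replicate block and leaving out each library.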

Additional observations from a re-analysis of the deposited data

How the results depend on the processing

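Among members, calls in CAF-1 OFF against control went from 0 to 1 with the DESeq2 Wald test and with the edgeR exact test (Ikzf2 in both), to 2 without a filter on low counts (Ikzf2 and Mycn) and to 1 with crossed replicate numbers, a block added after seeing the data (Ikzf2, FDR 0.0414 by edgeR). The cause was not tested. In HOXA9 OFF against control they went from 8 to 4 at 2-fold and FDR 0.01, and in CAF-1 OFF against HOXA9 OFF from 8 to 5. At a mean of 5 CPM, Mycn was not tested and gave no value. Leaving out each library gave 0, 7 to 8 and 7 to 8 calls. Cd34 and Runx1 in CAF-1 OFF against control depended on the CAF-1 OFF library left out, at -0.12 without the first and 0.26 without the second for Cd34, and at 0.23 and -0.07 for Runx1 (main values 0.07 and 0.08). Over all genes, the 4 calls in CAF-1 OFF against control became 192 with DESeq2, 243 with the exact test, 378 without the filter, 9 with the 4 libraries compared, 0 at the strict cutoffs, 2 with the replicate block, 71 with the crossed block and 0 to 10 without each library. The strict cutoffs left 987 of 2740 calls in HOXA9 OFF against control and 948 of 2755 in CAF-1 OFF against HOXA9 OFF, and leaving out each library gave 1602 to 2840 and 1711 to 2718. In the lists, the 0 calls in CAF-1 OFF against control became 4 (DESeq2), 6 (exact test), 13 (no filter) and 1 (crossed block), with 0 without each library. The strict cutoffs left 20 of 44 and 19 of 39 calls in the other comparisons, and leaving out each library gave 32 to 46 and 31 to 44.

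Same-numbered libraries deviated together in control and HOXA9 OFF (r = 0.456 across genes) but not in control and CAF-1 OFF (-0.178) or CAF-1 OFF and HOXA9 OFF (0.0329), so the numbers were not taken to pair the libraries. A batch or day shared by control and HOXA9 OFF was not tested. With the replicate block, member calls were 0, 8 and 8, list calls 0, 43 and 38, and calls over all genes 2, 2680 and 2684. With library size alone as the scaling, calls over all genes in HOXA9 OFF against control were 1434 higher and 1409 lower (50.4% higher, against 59.2% with TMM) and in CAF-1 OFF against HOXA9 OFF 1475 higher and 1334 lower (52.5% against 43.2%). In the lists they were 17 higher and 31 lower in HOXA9 OFF against control, and member calls were 0, 8 and 8. Only 2 libraries per group and low counts of Mycn and Bcl11a limit what can be called.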
